A study of Pyrus pyrifolia with 6 samples.

Results

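The regions described here are short, solitary stretches of the pear genome in which CHH methylation was already present at a low level in unbagged fruit skin and was higher in the skin of bagged fruit. They were taken from the authors' deposited list of differentially methylated regions by these criteria: a position on a chromosome, CHH context, a higher mean level in bagged than in unbagged skin (a gain), a length below 300 bp with no other gained CHH region within 1000 bp, and an unbagged level from 5% to below 20%. The criteria were met by 15846 of the 53954 listed regions. These were 37.6% of the 42128 gained CHH regions on the 17 chromosomes and 54.3% of the 29205 that were short and isolated in the same sense. They covered 2117 kb, against 6061 kb for all gained CHH regions on chromosomes, and held 602771 CHH cytosines. The 15846 regions are called low-level gains below. They are set beside the other isolated short gains, 5583 from under 5% unbagged (near-zero gains) and 7776 from 20% unbagged upwards (higher-level gains).

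The study profiled skin of Pyrus pyrifolia 'Cuiguan', a pear cultivar with partly russet fruit, by whole-genome bisulfite sequencing, which tells methylated from unmethylated cytosines by converting only the unmethylated ones. Fruit of the bagged group (3 samples) received white single-layer paper bags at 20 days after full bloom and yellow-white bags of double layer at 40 days, and fruit of the unbagged group (3 samples) stayed uncovered. All fruit came from trees of 7 years in 1 orchard, and skin of both groups was taken at 115 days. The design asks which methylation differences go with bagging in a cultivar that turns russet. The file gives 1 mean level per group and region with the replicates combined, so values per sample, their spread and the sequencing depth behind a level are unknown, and no test across samples could be made.

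Plants methylate cytosines followed by G (CG), by any other base and then G (CHG), or by no G in the next positions (CHH), H being A, C or T. In Arabidopsis, MET1 copies CG methylation onto the new strand after replication, and chromomethylases that read a histone mark maintain CHG methylation. CHH sites have no symmetrical partner, so their methylation has to be placed anew, by chromomethylases in heterochromatin and by the RNA-directed pathway, in which small RNAs guide DRM enzymes to short transposon remnants and to the edges of longer elements. DNA glycosylases of the DME and ROS1 family remove methylation in all contexts, also in Arabidopsis. Russeting is the replacement of the epidermis and cuticle of the fruit by cork, whose cells have suberin and lignin in their walls.

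The levels of the low-level gains chose them, so they are given as a description with no test. In bagged skin the median of the authors' mean levels was 22.3% (quartiles 17.01 and 28.3), against 10.4% in unbagged skin (7.39 and 14.4). The median gain was 10.8 percentage points (8.59 and 13.8), and the median ratio of bagged to unbagged level was 2.01 (1.79 and 2.37). A typical low-level gain thus had about 2-fold the methylation in bagged skin. Most lay close to this value: 99.5% had a ratio of at least 1.5, 51.5% of at least 2 and 9.13% of at least 3. Only 143 regions reached a ratio of 5, and 1 region reached 10. In points, 58.7% gained at least 10, 8.26% at least 20, and 45 regions at least 40. The bagged level was 20% or more in 9646 regions, which is 60.9% of them, and 50% or more in 86. Most low-level gains were therefore above the range of 5 to 20% in bagged skin, and few came to a level at which most CHH cytosines read were methylated.

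**Figure D1:**
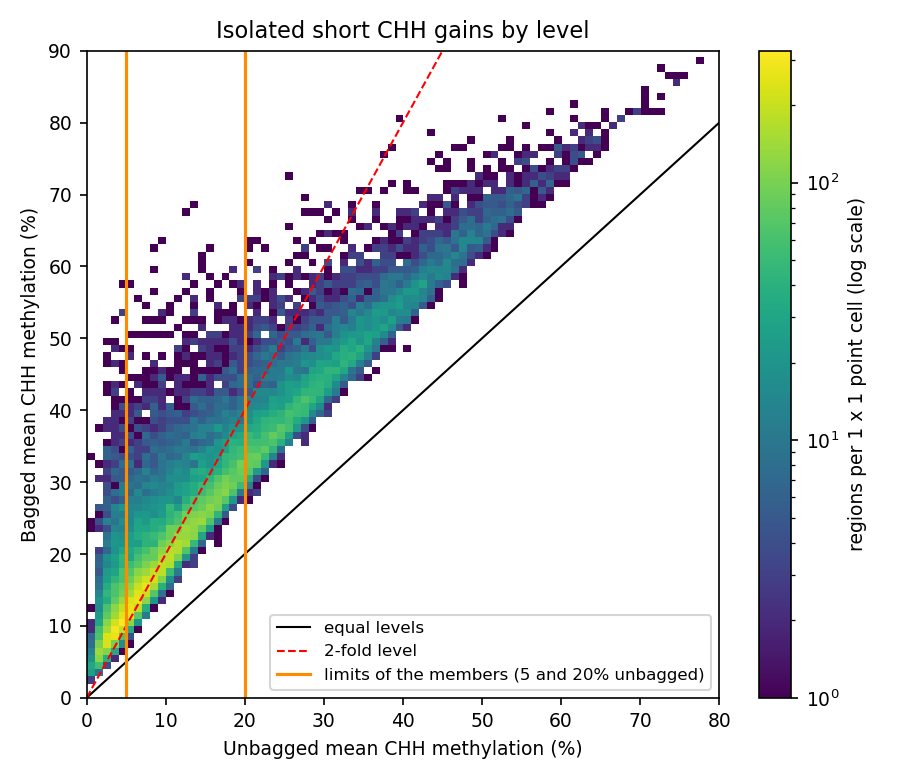
Number of isolated short CHH gains by the authors' mean CHH methylation in bagged skin (vertical axis, percent) and unbagged skin (horizontal axis, percent), in cells of 1 by 1 point with a log colour scale. The low-level gains lie between the orange lines at 5 and 20%, mostly along the dashed line of a 2-fold level. A tail of regions lies far above it, up to 68.8% bagged.

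Within the low-level gains, the gain in points was larger and the ratio smaller at higher unbagged levels. The 4125 regions from 5 to 7.5% had a median bagged level of 14.9%, against 6.23% unbagged, a median gain of 8.42 points and a median ratio of 2.35. Regions from 10 to 12.5% had medians of 22.04% bagged and 11.2% unbagged, with a gain of 10.8 points and a ratio of 1.96. Regions from 17.5 to 20% had 32.2% bagged and 18.7% unbagged, with a gain of 13.2 points and a ratio of 1.71. The numbers of regions per step of 2.5 points declined over the same range, to 1642 in the last. Neither a constant number of added points nor a constant factor describes the whole range. The smallest differences listed also depended on level: 5% of the regions gained less than 5.35 points from 5 to 7.5% unbagged, and 5% gained less than 9.78 points from 17.5 to 20%. The list holds called regions only and its calling limits are unknown here, so the part that calling had in this trend was not tested.

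**Figure D2:**
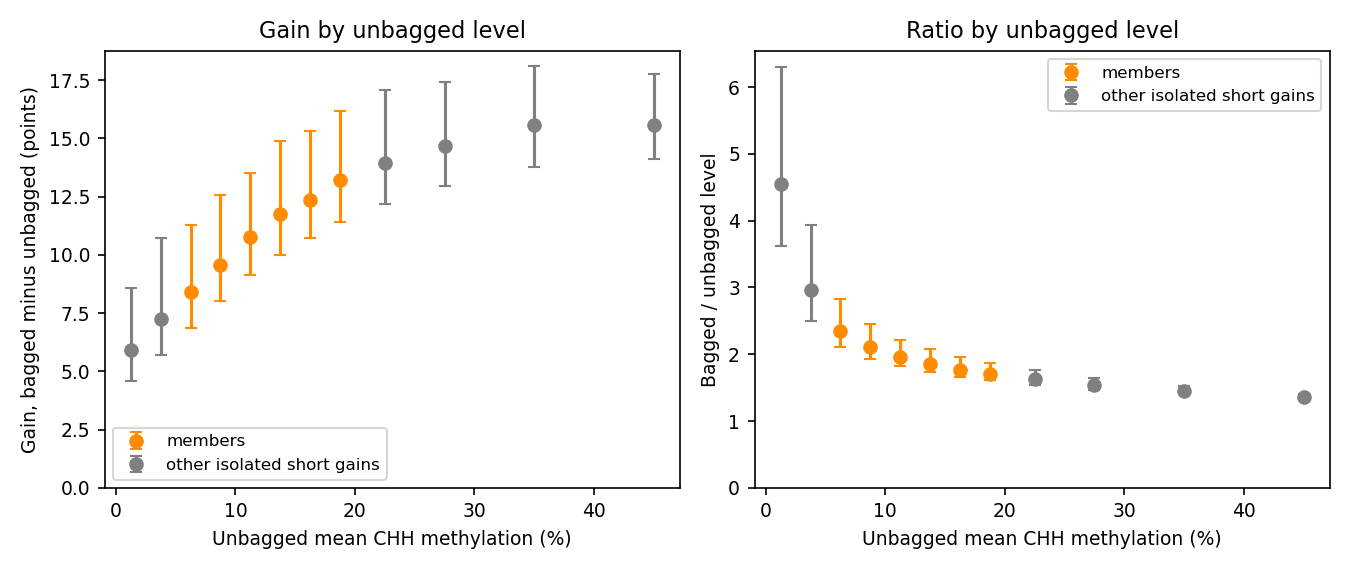
Gain in percentage points (left) and ratio of bagged to unbagged level (right) of isolated short CHH gains by unbagged level, as medians (points) with quartiles (bars). The low-level gains (orange) continue the course of the gains below 5% and from 20% (grey): the median gain is 8.42 points at 5 to 7.5% and 13.2 points at 17.5 to 20%, and the median ratio 2.35 and 1.71.

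The limits of 5 and 20% cut through a continuous distribution. The low-level gains nearest to 5% were at chr10:16950584-16950666, with 18.3% bagged and 5.0007% unbagged, and at chr6:22592991-22593142, with 13.6% bagged and 5.0018% unbagged. Just outside were a region at chr9:17520777-17520828, with 16.5% bagged and 4.9991% unbagged, and one at chr2:19484782-19485005, with 16.96% bagged and 4.9983% unbagged. Nothing in these values separates the sides. At the upper limit, the nearest low-level gains were at chr8:5464681-5464861, with 31.9% bagged and 19.996% unbagged, and at chr6:1671371-1671427, with 33.2% bagged and 19.994% unbagged. The nearest regions beyond it had 34.04% bagged and 20.007% unbagged, at chr15:10198119-10198267, and 36.5% bagged with 20.008% unbagged, at chr13:1944694-1944861. The 1673 regions from 5 to 6% unbagged had a median gain of 7.96 points and the 1780 from 4 to 5% one of 7.56. Regions of 298 and 299 bp numbered 13 and 10, and otherwise eligible regions of 300 and 301 bp numbered 9 and 10. With a gap of 1001 to 1100 bp to the next gained CHH region there were 403 low-level gains, and 502 regions with a gap of 901 to 1000 bp were left out.

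The largest gains among regions of at least 10 cytosines were far from the median of 10.8 points. At chr17:3237519-3237713, 24 cytosines had 68.8% in bagged skin, against 13.02% in unbagged skin. At chr13:11182176-11182386, 32 cytosines had 67.99% in bagged skin, against 12.4% in unbagged skin. At chr5:5514119-5514301, 20 cytosines had 62.8% bagged and 8.99% unbagged. All 3 are among the 86 low-level gains with a bagged level of 50% or more. The next was at chr16:9280644-9280858, where 25 cytosines had 57.8% in bagged skin, against 5.42% in unbagged skin. It also had the largest ratio of all low-level gains, 10.7. A region of 15 cytosines at chr2:25110848-25110930 had 59.9% bagged and 8.24% unbagged, and one of 17 cytosines at chr15:26049843-26049960 had 55.04% bagged and 6.13% unbagged. By ratio, a region of 10 cytosines at chr7:11969458-11969598 came second, with 50.5% bagged, 5.24% unbagged and a ratio of 9.64. The third was at chr10:22213389-22213551, with 48.7% bagged, 5.23% unbagged and a ratio of 9.30. In each of these 8 regions the listed CHH cytosines were sparse. There were 5.53 to 14.1 bp of length per listed cytosine, against a median of 3.49 bp over all low-level gains.

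At the other end, the smallest gain was 2.79 points, at chr15:4628571-4628656, with 7.98% bagged and 5.19% unbagged over 29 cytosines. It was followed by 3.24 points at chr13:22858235-22858393, with 9.17% bagged and 5.93% unbagged over 48 cytosines, and by 3.26 points at chr5:941497-941576, with 9.22% bagged and 5.96% unbagged over 29 cytosines. The regions with the most cytosines also had modest gains. On chromosome 15, 128 cytosines from 27454003 to 27454289 had 12.9% in bagged and 7.05% in unbagged skin, and 124 cytosines from 36907454 to 36907751 had 11.6% bagged and 5.68% unbagged. On chromosome 16, 122 cytosines from 16955504 to 16955788 had 27.5% in bagged and 18.2% in unbagged skin. Genes and transposons at these positions were not analysed here, since no annotation of the files' build was used, and a single region has no error beside its levels.

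The low-level gains had a median length of 123 bp (quartiles 80 and 179) and a median of 35 CHH cytosines (22 and 51). Near-zero gains had medians of 111 bp and 31 cytosines, and higher-level gains of 122 bp and 34 cytosines. Length per listed CHH cytosine (spacing) was not used directly by the criteria. It had a median of 3.49 bp in low-level, 3.48 bp in near-zero and 3.60 bp in higher-level gains. The 3 classes were thus close in length, listed cytosines and spacing, with differences that are small beside their quartiles. Whether every CHH site of a region was counted is unknown without a genome, so spacing may differ from the density of these sites. Across unbagged levels within the low-level gains, the median length was 116 bp from 5 to 7.5% and 131 bp from 17.5 to 20%.

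Low-level gains with thinly spread listed CHH cytosines had larger gains. The median gain was 9.23 points in the 3590 regions with less than 3 bp per cytosine, 10.4 points at 3 to 4 bp, 12.4 at 4 to 5 bp, 14.6 at 5 to 7 bp, and 17.3 points in the 494 regions with 7 bp or more. Spearman's rho between spacing and gain was 0.40 over the 15846 regions, as a description across regions that share libraries. Within ranges of the unbagged level, only regions under 3 bp and from 5 bp were compared, and the sparser ones had the larger median gain in each. From 5 to 10% unbagged, the median gain was 14.1 points with at least 5 bp per cytosine and 7.65 points with under 3 bp. From 10 to 15% these medians were 15.5 and 9.81 points, and from 15 to 20% they were 16.5 and 11.5 points. In these subsets, which leave out regions from 3 to below 5 bp, the medians differed more between the spacings than between the unbagged levels. Over all 15846 regions, Spearman's rho with the gain was 0.44 for the unbagged level and 0.40 for spacing. Near-zero gains had medians of 15.2 points at 7 bp or more and 5.72 points under 3 bp, and higher-level gains of 19.04 and 13.5 points, so the order was not limited to low-level gains.

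Sparse regions also held fewer cytosines, and this moved with the result. At 5 to 10% unbagged, regions with at least 5 bp per cytosine had a median of 15 cytosines and those under 3 bp one of 40. By number of cytosines alone, the median gain was 13.7 points in the 321 regions with under 10 cytosines and 11.2 points from 10 to 19. It was 10.2 from 20 to 29, 10.7 from 30 to 49, 10.8 from 50 to 79, and 11.1 in the 527 regions with 80 or more. Spearman's rho between cytosine number and gain was -0.02, and between length and gain 0.18. Spacing is length divided by cytosine number, so these values do not separate spacing from cytosine number. The part that cytosine number, sites missing from the count and the authors' calling had in the order by spacing was not tested.

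**Figure D3:**
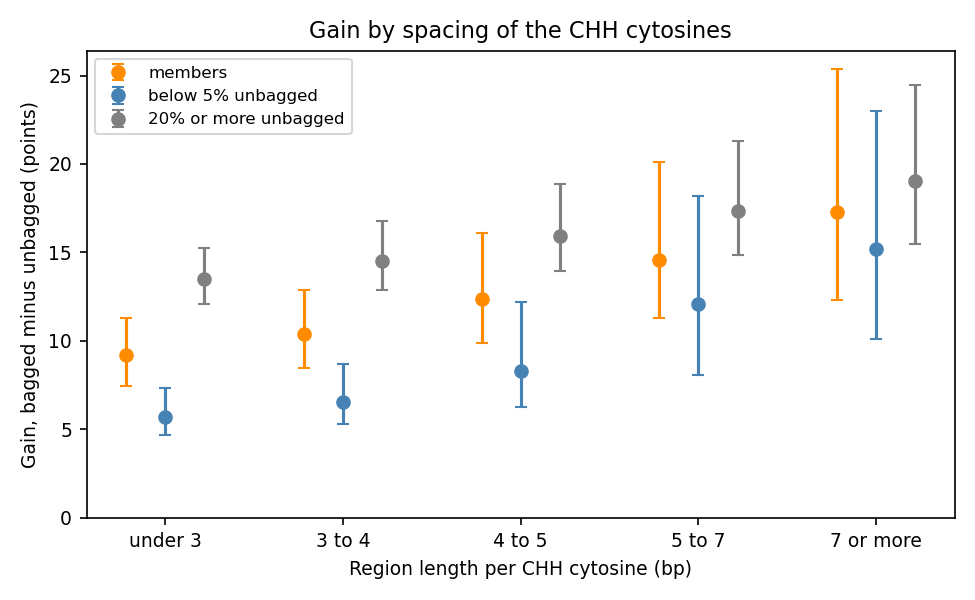
Gain in percentage points by region length per CHH cytosine (bp), as medians (points) with quartiles (bars), for low-level gains (orange, "members"), near-zero gains (blue) and higher-level gains (grey). In low-level gains the median is 9.23 points under 3 bp and 17.3 points at 7 bp or more, and the bars widen with spacing.

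The low-level gains, which the criteria sought on chromosomes only, were spread over all 17 chromosomes. Their number per Mb, taken over the span from the first to the last listed region of a chromosome, was 32.6 over all 17 chromosomes, with a range from 29.9 on chromosome 10 to 36.1 on chromosome 6. Chromosome 15 held the most, 1391, and chromosome 1 the fewest, 665. Each of the 479 full 1 Mb bins held at least 9 low-level gains, with a median of 33 (quartiles 27 and 38). The fullest bin, with 56, was at chr11:16000001-17000000, and bins with 53 were at chr3:12000001-13000000 and at chr15:18000001-19000000. The emptiest, with 9, was at chr4:21000001-22000000. No chromosome and no full 1 Mb bin was without low-level gains.

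As a share of the isolated short gains, low-level gains made up 51.2% on chromosome 9 (95% exact binomial interval 48.6 to 53.7) and 57.1% on chromosome 12 (54.6 to 59.6), the lowest and the highest values. The levels varied as little. Median bagged levels ran from 20.6% on chromosome 13 to 23.1% on chromosome 4, where the median unbagged levels were 9.70% on chromosome 13 and 10.98% on chromosome 4, and the median ratio was between 1.98 and 2.05 on every chromosome. The intervals cover counting error only, and regions are not replicates of the treatment.

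**Figure D4:**
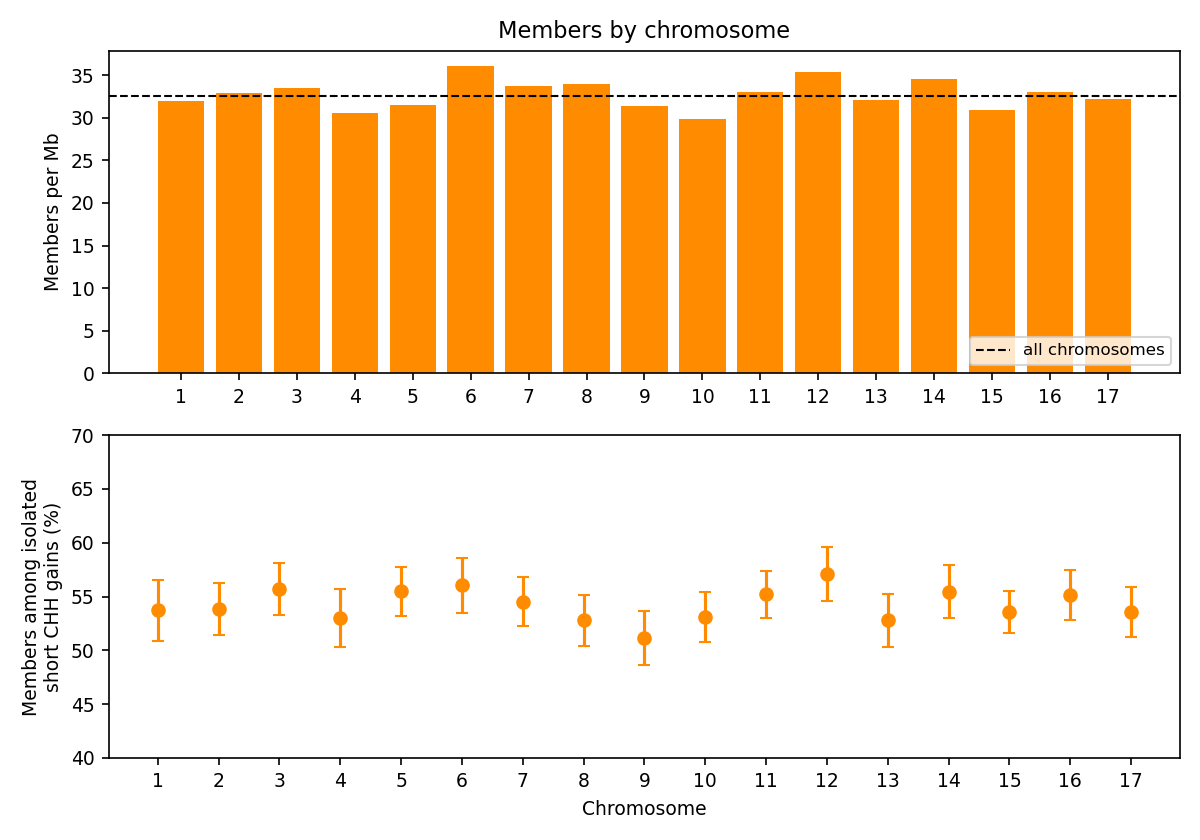
Low-level gains ("members") per Mb of the listed span of each chromosome (top, bars, with the value over all chromosomes dashed), and their share of isolated short CHH gains with 95% exact binomial intervals (bottom, points and bars, axis from 40 to 70%). Densities lie between 29.9 and 36.1 per Mb and shares between 51.2 and 57.1%.

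Low-level gains were more frequent towards the middle of the chromosomes. With each chromosome's span divided into 10 equal parts, the fifth and the sixth held 36.8 and 36.7 low-level gains per Mb, against 29.4 in the first and 27.4 in the last. The share among isolated short gains was between 55.5 and 56.9% from the fourth to the seventh part and between 51.2 and 52.4% in the outer parts, that is, the first and second and the last and the one before it. Near-zero gains also had more regions in the middle, 694 and 671 in the fifth and sixth parts against 496 and 444 in the first and last. Higher-level gains did not, with 742 and 726 in the fifth and sixth against 811 and 765 in the first and last. The low-level gains of the fifth part had a median of 21.4% bagged and 10.003% unbagged, and those of the first 23.1% bagged and 10.9% unbagged. Gained CHH regions with another within 1000 bp were not counted along the chromosomes, and gene and transposon density was not used here. The part of either in these numbers was not tested.

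The gap to the nearest gained CHH region is a description, since the criteria set it above 1000 bp. Its median was 4468 bp in low-level gains (quartiles 2278 and 8773), against 4511 bp in near-zero gains and 4758 bp in higher-level gains. For 20.3% it was below 2000 bp, for 34.01% from 2000 to below 5000 bp, and for 25 regions it was 50000 bp or more. The most remote from any listed region was at chr17:30296989-30297070, with a gap of 73424 bp, 15.8% bagged and 8.50% unbagged. Next was a region at chr7:18636759-18636949, with a gap of 72638 bp, 23.4% bagged and 8.61% unbagged.

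The size of the gain differed little with the distance from the next gain. Regions with a gap below 2000 bp had a median gain of 10.6 points and those with a gap from 20000 to below 50000 bp one of 11.3 points, with a Spearman's rho of 0.05 over all 15846. The nearest gained CHH region was itself at 5 to below 20% unbagged in 56.4% of cases, below 5% in 17.97% and at 20% or more in 25.7%. Among all gained CHH regions on chromosomes these shares were 55.2%, 17.95% and 26.8%. A low-level gain's neighbour was thus of the 3 level classes in nearly the proportions of all gained CHH regions. Spearman's rho between a low-level gain and this neighbour was 0.10 for the unbagged level and 0.18 for the gain.

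Some low-level gains had a CHH region with less methylation in bagged skin close by. Of the 15846, 414 had such a lost CHH region within 1000 bp (2.61%, exact binomial interval 2.37 to 2.87), 124 of them within 300 bp. None overlapped one, and neither did any other gained CHH region on chromosomes. For near-zero gains the share within 1000 bp was 2.20% (1.83 to 2.62) and for higher-level gains 3.32% (2.93 to 3.74). Over all 42128 gained CHH regions on chromosomes, which include these, it was 2.56% (2.41 to 2.71), so the share in low-level gains was close to that background. The median distance from a low-level gain to the nearest lost CHH region was 38.2 kb. In the 420 pairs within 1000 bp, the low-level gains had medians of 23.4% bagged and 10.4% unbagged, and the lost regions of 10.3% bagged and 26.4% unbagged. The unbagged level of the low-level gains was set by the criteria.

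The criteria were also applied in mirror image, to lost CHH regions below 300 bp with a bagged level from 5% to below 20% and no other lost CHH region within 1000 bp. These numbered 2307, which is 14.6 for every 100 low-level gains. Lost CHH regions were fewer in general, with 4533 on chromosomes against 42128 gained. The 2307 were 50.9% of the lost regions, while the low-level gains were 37.6% of the gained ones. These shares are not alike, since fewer regions on the same chromosomes more often lie over 1000 bp apart. Of the 42128 gained regions, 30518 were isolated at any length. Low-level gains were 54.3% of the isolated short gains. The part of isolation in the unequal shares was not tested. The mirrored losses had medians of 10.04% in bagged and 25.5% in unbagged skin, a difference of -13.8 points, 93 bp and 24 cytosines. The loss was larger in points than the 10.8 of the low-level gains, on fewer cytosines. As both sets were picked by the levels compared, this difference is a description.

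The CG and CHG contexts were not used to choose the low-level gains. Of the 15846, 98 (0.618%, exact binomial interval 0.502 to 0.753) shared at least 1 bp with a CG or CHG region, 38 with CG only, 48 with CHG only and 12 with both. The share was 1.16% in near-zero gains, 0.347% in higher-level gains and 0.691% over all gained CHH regions on chromosomes, which include the low-level gains. The other 15748 had no listed CG or CHG region at the same place, which does not say that those contexts were unchanged there, as only called regions are listed. Where a CG or CHG region did overlap, it mostly differed in the same direction. Of the 50 CG pairs, 42 had a higher CG level in bagged skin (84.0%, exact binomial interval 70.9 to 92.8), and of the 60 CHG pairs, 55 did (91.7%, 81.6 to 97.2). Over all listed regions on chromosomes, 38.4% of 1958 CG and 50.3% of 1787 CHG regions were higher in bagged skin. In near-zero gains 31 of 33 CG and 44 of 44 CHG pairs were higher, and in higher-level gains 9 of 16 and 11 of 12. Over all gained CHH regions on chromosomes, 127 of 164 CG (77.4%) and 156 of 168 CHG pairs (92.9%) were higher, so the shared direction was not particular to low-level gains. No test between these shares was made. CG, CHG and CHH levels of a place come from the same libraries.

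The overlapping CG regions that were higher had medians of 57.3% in bagged and 24.3% in unbagged skin, and the CHG regions 52.8% bagged and 20.97% unbagged. The low-level gains over the 42 CG regions had 25.7% bagged and 10.04% unbagged. The median difference was 24.2 points in CG and 25.5 points in CHG context, and in 92 of the 97 pairs it was larger than the CHH gain of the same pair. Higher CG and CHG regions lying apart, up to 1000 bases away, had similar median differences of 24.5 and 24.1 points. Differences of this size were thus not particular to an overlap. In 11 of the 97 overlapping pairs the CG or CHG level was under 10% in unbagged skin. Across these pairs, larger CHH gains went with larger CG gains (Spearman's rho 0.55 over 42 pairs) and larger CHG gains (0.55 over 55 pairs), as a description over regions chosen for a difference in each context. The 98 low-level gains with an overlapping region had a median gain of 13.1 points, a median length of 170.5 bp and 44 cytosines, against 10.7 points, 123 bp and 35 cytosines in those without. The part of length in these values was not tested.

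In all 12 low-level gains that overlapped both a CG and a CHG region, the listed region of every context was higher in bagged skin. Each level below is that of the whole listed region of its context, not of shared bases. At chr15:24797185-24797313 the CG and the CHG region did not overlap each other. The largest mean gain over contexts was at chr10:22770791-22770886. There the CHH level was 26.9% bagged and 7.37% unbagged, the CG level 63.7% bagged and 18.8% unbagged, and the CHG level 62.5% bagged and 21.9% unbagged. At chr7:29482182-29482239, CHH had 19.6% bagged and 10.2% unbagged, CG 60.1% bagged and 17.8% unbagged, and CHG 58.7% bagged and 20.97% unbagged. Both places thus had a CG and CHG level of about 60% in bagged and about 20% in unbagged skin. At chr15:24797185-24797313, CHH had 33.7% bagged and 14.9% unbagged, CG 82.6% bagged and 57.3% unbagged, and CHG 73.5% bagged and 35.8% unbagged. At chr2:26878134-26878209, CHH had 35.96% bagged and 17.1% unbagged, CG 74.5% bagged and 47.7% unbagged, and CHG 50.8% bagged and 17.9% unbagged. At these last places the unbagged CG level was higher. At chr5:26533773-26534000, 61 CHH cytosines had 21.5% bagged and 7.11% unbagged, CG 52.01% bagged and 24.7% unbagged, and CHG 35.4% bagged and 9.86% unbagged. At chr4:14580828-14580996, CHH had 20.8% bagged and 10.01% unbagged, CG 49.8% bagged and 25.5% unbagged, and CHG 52.4% bagged and 21.2% unbagged. Each of the non-CHH levels here rests on 5 to 17 cytosines.

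In 13 low-level gains the overlapping region differed the other way. The shared stretch ran from 13 bp, at chr15:20460083-20460324, to 101 bp, at chr9:21654263-21654401. Most of these CG or CHG regions reached beyond the low-level gain, so their levels are not those of the shared stretch alone. The largest opposite difference was at chr4:14961110-14961164, where the CHH level was 25.3% bagged and 11.8% unbagged and that of 11 CG cytosines 20.9% bagged and 62.5% unbagged. At chr15:18280613-18280665, CHH had 31.1% bagged and 19.3% unbagged, and 6 CHG cytosines 27.7% bagged and 60.6% unbagged. At chr6:13922249-13922366, CHH had 19.5% bagged and 9.78% unbagged, and 20 CG cytosines 42.2% bagged and 69.6% unbagged. In 12 of the 13 the CG or CHG level was 60% or more in unbagged skin. The exception was at chr15:20460083-20460324, where 19 CHG cytosines had 12.1% bagged and 24.7% unbagged. The 8 CG regions that were lower had medians of 51.5% in bagged and 70.7% in unbagged skin, and the 5 CHG regions 41.5% bagged and 66.7% unbagged.

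CG and CHG regions that lay beside a low-level gain without overlapping it were mostly lower in bagged skin. Up to 1000 bases away there were 165 CG pairs, of which 45 were higher (27.3%, exact binomial interval 20.6 to 34.7), and 144 CHG pairs, of which 48 were higher (33.3%, 25.7 to 41.7). These shares are below the 38.4% of all CG and the 50.3% of all CHG regions on chromosomes. They are far below the 84.0% and 91.7% of overlapping pairs. The intervals cover counting error only, pairs are not replicates of the treatment, and no test between these shares was made. From 2001 to 5000 bases away, 37.4% of 431 CG pairs and 51.5% of 379 CHG pairs were higher, close to the shares of all such regions. As a description, the direction of CG and CHG differences varied with distance. They were mostly higher at the place of the CHH gain, more often lower in its flanks, and as in the whole list a few kilobases away. The lower CG regions in the flanks had medians of 45.4% in bagged and 74.3% in unbagged skin, and the lower CHG regions 29.8% bagged and 59.1% unbagged. The low-level gains beside the lower CG regions had 24.2% bagged and 11.9% unbagged.

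In the flanks of the other isolated gains the shares lay on either side of these. Up to 1000 bases from near-zero gains, 23 of 45 CG pairs (51.1%, 35.8 to 66.3) and 27 of 56 CHG pairs (48.2%, 34.7 to 61.97) were higher in bagged skin. For higher-level gains it was 29 of 122 CG pairs (23.8%, 16.5 to 32.3) and 22 of 96 CHG pairs (22.9%, 14.95 to 32.6). Low-level gains lay between both in each context, with intervals that overlap those of at least one other class. Over all gained CHH regions on chromosomes the shares were 28.9% of 570 CG and 35.7% of 518 CHG pairs, so a low share in the flanks is not particular to low-level gains. A CG or CHG region could enter several pairs: the 309 pairs of low-level gains up to 1000 bases apart rested on 305 such regions.

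**Figure D5:**
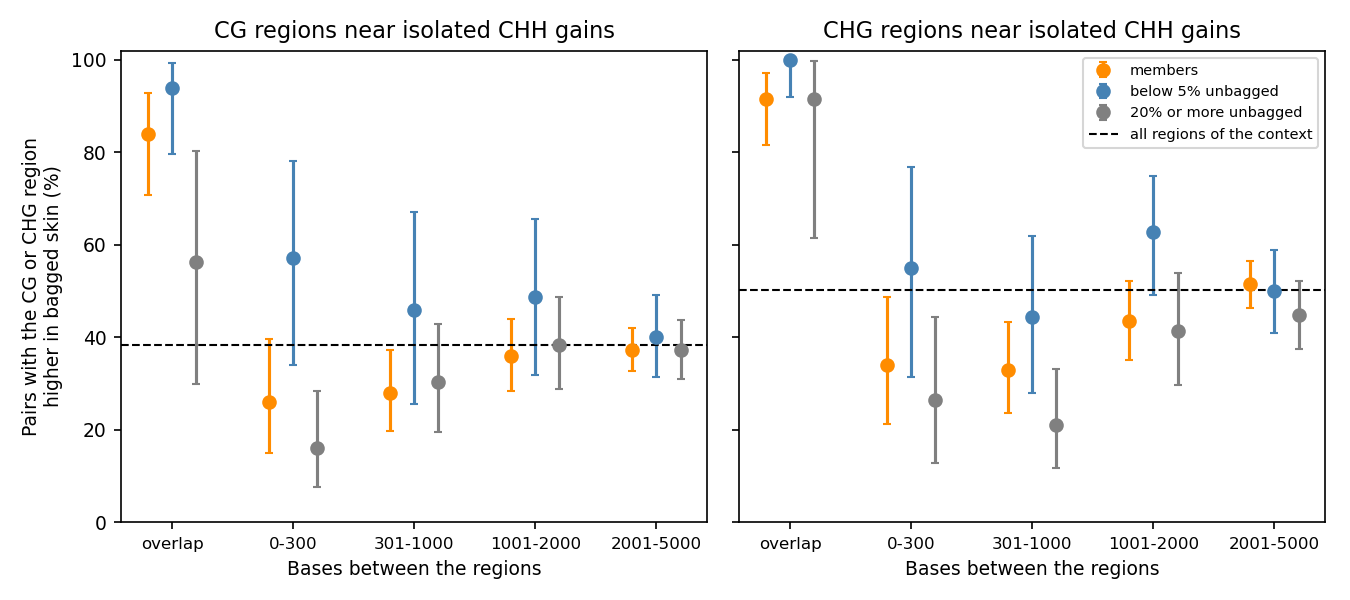
Share of pairs in which the CG (left) or CHG (right) region was higher in bagged skin, by the number of bases between it and an isolated CHH gain, with 95% exact binomial intervals, for low-level gains (orange, "members"), near-zero gains (blue) and higher-level gains (grey). The dashed line is the share among all listed regions of that context on chromosomes. For low-level gains the shares are 84.0% of CG and 91.7% of CHG pairs at an overlap. They are 25.9% and 34.0% up to 300 bases apart, and 27.9% and 33.0% from 301 to 1000 bases apart.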

How the data were processed

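Genomic DNA from skin of bagged and unbagged fruit, in 3 biological replicates each, was extracted with CTAB, per the labels' protocols, which give Accel-NGS Methyl-Seq as the library kit. The submitters' processing notes name FastQC and the bisulfite aligner Bismark 0.16.3. For the caller of regions and its limits, the build and the coverage the sources used here have no entry. The authors' deposited table holds mean methylation levels per group as a fraction (printed as percent), their difference, and a score named the area statistic, which was not used. Replicates are combined in it. Positions are printed as deposited, read as counted from 1 with both ends included.

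Gains, ratios, gaps (bases between regions, more than 1000 required) and overlaps (at least 1 bp) were computed in Python 3.11.15 with pandas 2.3.3 and SciPy 1.17.1, and the procedures were tested on simulated regions. Shares have 95% exact (Clopper-Pearson) intervals, which cover counting error only. No test was made, since there are no values per sample and the levels chose the regions. With 3 samples a group, an exact two-sided permutation p cannot go below 0.1. The regions, classes and lists were chosen with earlier results of these data known. Regions were named by fixed rules: the largest and smallest gains, the largest ratios, the most cytosines, the values nearest each limit, overlaps with both other contexts or with an opposite difference, and the longest gaps. The mirrored set of losses and the order by spacing were added with the data in view. Alternatives varied each limit and left out each chromosome. No sequences are shown, as no genome of the files' build was used.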

Additional observations from a re-analysis of the deposited data

How the results depend on the processing

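Under the alternatives 290 values were computed, and 283 of them stayed within set limits. Numbers of regions had to move by less than 1.5 times, medians to stay within the quartiles and shares within their 95% binomial interval. These limits are wide, and the alternatives reuse mostly the same regions, so this count is no independent support. From 8% unbagged, for example, 10964 regions with a median unbagged level of 12.7% counted as within the limits. With gains of at least 10 points, 9307 low-level gains were left, the share with an overlapping CG or CHG region was 0.817%, and the share with a lost CHH region within 1000 bp was 3.14%. With lengths below 200 bp the share with an overlapping region was 0.462%. Counting CG and CHG regions within 1000 bp as well as overlapping ones gave 2.34% with such a region, and 45.3% of the pairs were then higher in bagged skin, as flanking regions enter. Among pairs overlapping by at least 50% of the shorter region, 92.9% were higher. If lost CHH regions also ended isolation, the share near one was 0% by construction. Without each chromosome in turn, the median gain was 10.7 to 10.8 points and the median ratio 2.01 to 2.02. A gap of exactly 1000 bp, allowed as an alternative chosen after seeing the data, gave 15848 regions. Leaving out replicates, a minimum of coverage and chromosome lengths of a reference were not run, for want of such values. No paired analysis was possible because the file holds no values per sample.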
